A study of Arabidopsis thaliana with 18 samples.

Results

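Aliphatic glucosinolates are sulfur-rich defence compounds that Arabidopsis and its relatives build from methionine, and 10 genes of this pathway were followed here in root RNA of 5-day-old Arabidopsis thaliana seedlings. The 10 genes were set by their locus identifiers, with earlier results of these data known, and all 10 are among the 25202 loci of the deposited expression table. They are 3 genes of side-chain elongation (BCAT4, AT3G19710; BAT5, AT4G12030; MAM1, AT5G23010), 4 genes of the core structure (CYP79F1, AT1G16410; CYP79F2, AT1G16400; CYP83A1, AT4G13770; UGT74C1, AT2G31790) and 3 regulators (MYB28, AT5G61420; MYB29, AT5G07690; MYB76, AT5G07700). In chain elongation, methionine loses its amino group, the resulting oxo acid enters the plastid, and carbon units are added to it. Cytochrome P450 enzymes then turn the elongated amino acids into oximes and reactive intermediates, which receive sulfur, glucose and sulfate in turn. MYB28, MYB29 and MYB76 are related transcription factors that switch on the genes of this branch, and the compounds themselves are broken down by myrosinases when tissue is damaged.

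The study measured RNA in 18 root libraries, 3 for each of 6 groups. In 5 groups a driver line carried UAS_YUC4, a transgene that places YUC4 under the control of the GAL4 activator made by the driver. YUC4 is a flavin monooxygenase that makes the auxin indole-3-acetic acid. The drivers were J0951, J0571, Q2500, J0121 and Q0990, and in the last group, J0951/Col, Col took the place of the transgene beside the J0951 driver; it was the control of every comparison with a control below. J0951/UAS_YUC4 alone shared its driver with the control, so for the other 4 lines an effect of the driver cannot be told apart from one of UAS_YUC4. The root cells in which each driver is active, the genetic background of each line and the number of seedlings behind each library are not given here. The labels do not say that the 3 libraries of a group came from separate plantings, so the tests measure their spread alone, and that spread may be technical.

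Values are FPKM as the authors deposited them. In these, fragment numbers are divided by transcript length and by the size of the library, so levels may be compared between genes. Comparison between libraries also depends on their composition, which this step does not adjust, and results under other scalings are given below. The values summed to 650929 to 678093 per library, and the number of reads per library is unknown. Transcript levels of YUC4 itself were 31.51, 36.55 and 44.6 FPKM in J0951/UAS_YUC4, 67.97 to 78.58 in J0571/UAS_YUC4, 87.43 to 118.54 in Q2500/UAS_YUC4 and 726.86 to 896.98 in J0121/UAS_YUC4, against 0.15 to 0.30 in J0951/Col. In Q0990/UAS_YUC4 it had 1.68, 11.95 and 0.29 FPKM, so that the library labelled replicate 3 lay within the range of the control. By the correlation of all tested genes, 2 libraries were closest to a library of another group, namely Q2500/UAS_YUC4 replicate 3 to J0121/UAS_YUC4 replicate 2 and Q0990/UAS_YUC4 replicate 1 to J0951/Col replicate 2. Root identity was visible in all groups, with none of 8 root markers at 0. Of these 8, 2 rose in J0951/UAS_YUC4 (GL2 and RHS19), 2 fell (PYK10 and CASP1) and 4 were not called, with a median of 0.09. Of all tested genes, 23.8% were called higher and 16.7% lower in this comparison, shares not far from those of the markers. The summed level of the 8 root markers was 4225 to 4757 FPKM in J0951/UAS_YUC4 and 7958 to 8356 FPKM in J0951/Col. It was 4429 to 4793 FPKM in J0571/UAS_YUC4, 6980 to 7444 in Q2500/UAS_YUC4, 6845 to 7425 in J0121/UAS_YUC4 and 8198 to 9354 in Q0990/UAS_YUC4. Most of it was PYK10, a root beta-glucosidase, with means of 4140 and 7750 FPKM in J0951/UAS_YUC4 and J0951/Col. The call of PYK10 was lost with quantile normalization (adjusted p = 0.083).

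The stretches upstream of 4 of the 10 genes are shown because their RNA behaved most differently: BCAT4 and CYP83A1 had the largest changes of the 10, and CYP79F1 and CYP79F2 are neighbours of like coding sequence whose levels lay far apart. Each stretch is the 250 bases before the annotated gene start on the gene's own strand, from the RefSeq annotation of TAIR10.1, matched by locus identifier because no source used here names the build behind the values. BCAT4 lies at chr3:6849583-6849832 on the minus strand, CYP83A1 at chr4:7992430-7992679 on the minus strand, CYP79F1 at chr1:5608432-5608681 on the plus strand and CYP79F2 at chr1:5604794-5605043 on the plus strand, where each interval is the printed stretch. Capitals mark matches to the searched motifs.
BCAT4 upstream: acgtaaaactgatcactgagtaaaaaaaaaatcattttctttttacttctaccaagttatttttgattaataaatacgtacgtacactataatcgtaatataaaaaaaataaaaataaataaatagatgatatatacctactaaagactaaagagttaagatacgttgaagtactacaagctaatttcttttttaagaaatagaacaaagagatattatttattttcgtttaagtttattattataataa
CYP83A1 upstream: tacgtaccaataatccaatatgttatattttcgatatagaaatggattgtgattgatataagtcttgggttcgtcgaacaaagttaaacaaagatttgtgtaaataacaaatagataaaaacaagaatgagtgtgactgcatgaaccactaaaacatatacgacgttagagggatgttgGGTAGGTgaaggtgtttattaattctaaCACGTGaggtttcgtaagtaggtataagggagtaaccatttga
CYP79F1 upstream: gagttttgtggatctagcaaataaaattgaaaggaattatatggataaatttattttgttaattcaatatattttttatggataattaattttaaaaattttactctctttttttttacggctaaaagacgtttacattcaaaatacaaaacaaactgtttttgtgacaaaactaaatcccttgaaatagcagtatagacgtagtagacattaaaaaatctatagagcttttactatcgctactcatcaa
CYP79F2 upstream: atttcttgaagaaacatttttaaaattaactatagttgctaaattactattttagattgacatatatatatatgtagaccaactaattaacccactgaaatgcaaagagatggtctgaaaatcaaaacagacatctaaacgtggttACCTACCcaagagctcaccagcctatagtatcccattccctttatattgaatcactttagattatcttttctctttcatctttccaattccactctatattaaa

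The motifs searched on both strands were TGTCTC and TGTCGG, which are core letters of auxin response elements, CACGTG, the G-box bound by factors of the MYC type, and ACCNACC, a form of the elements bound by MYB factors. ACCNACC was found upstream of 3 of the 10 genes (BAT5, CYP79F2 and CYP83A1), against 6.1% of 27443 gene starts of the annotation. In CYP83A1 it began 71 bases before the start on the reverse strand, and in CYP79F2 it began 104 bases before the start on the forward strand. The G-box was found in 1 of the 10, CYP83A1, at 43 bases before the start, against 6.49% of all starts. TGTCTC was found in 1 of the 10, UGT74C1, against 10.9% of all starts, and TGTCGG in 0 of the 10, against 4.16%. No match of one motif overlapped a match of another. These are matches of letters within the windows and do not show binding.

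Of the 10 genes, 7 were expressed at 1 FPKM or more in all 18 libraries and were tested. The other 3, CYP79F1, MYB29 and MYB76, never reached 1 FPKM, did not pass the filter of 1 FPKM in 3 libraries and are described without a main test. The lowest value of any tested member in any library was 3.23 FPKM, so the filter did not select among the 7 by group. Tests were made with limma on log2(FPKM + 1) over all 19260 genes that passed the filter, and a gene was called at a Benjamini-Hochberg adjusted p under 0.05. Changes are differences on this log2 scale with their standard error (SE), group levels are means ± SD of FPKM (n = 3 libraries), and the 5 comparisons with J0951/Col share its 3 libraries.

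**Figure D1:**
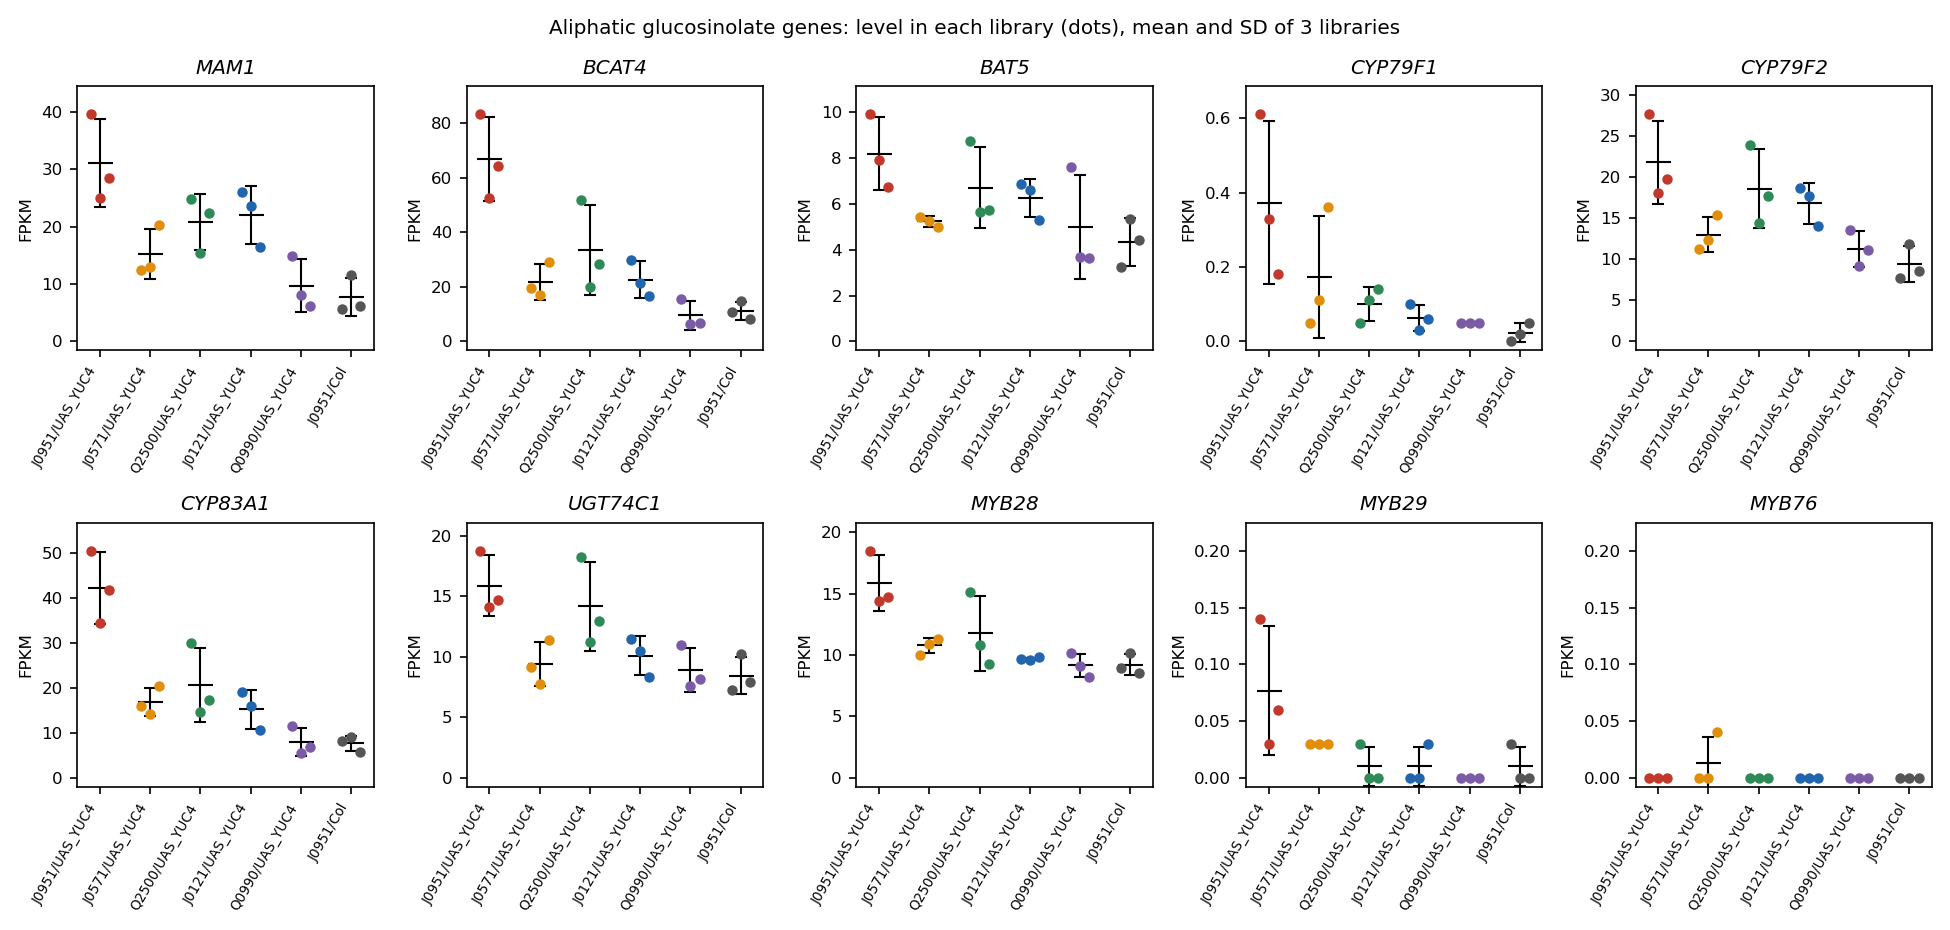
Level of each of the 10 genes in FPKM (vertical axes, each starting at 0 and scaled to its gene), in the 5 UAS_YUC4 lines and in J0951/Col (horizontal axes); dots are libraries, and bars show the mean and SD of 3 libraries. The 7 tested genes are highest on average in J0951/UAS_YUC4, and CYP79F1, MYB29 and MYB76 stay under 1 FPKM in all 18 libraries.

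With UAS_YUC4 under the driver it shares with the control, all 7 tested genes rose. In J0951/UAS_YUC4 the largest changes were those of BCAT4, by 2.49 on the log2 scale, and CYP83A1, by 2.32, followed by MAM1, by 1.91, and CYP79F2, by 1.13. UGT74C1, BAT5 and MYB28 rose by 0.84, 0.80 and 0.72. In none of the 7 did a J0951/UAS_YUC4 library overlap with a J0951/Col library. For reading these counts, 23.8% of all tested genes were called higher in this comparison and 31.6% were higher with no overlap, and the median change was 1.13 for the 7 genes against 0.05 for all tested genes. Whether such a change reflects more cells of a type or more RNA per cell cannot be told apart in RNA of whole roots.

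BCAT4, the aminotransferase that removes the amino group of methionine at the entry of the pathway, was the most abundant of the 10 in J0951/UAS_YUC4. It had 83.25, 52.70 and 64.34 FPKM in J0951/UAS_YUC4, 19.44, 16.87 and 29.20 in J0571/UAS_YUC4, 51.88, 20.08 and 28.35 in Q2500/UAS_YUC4, 29.92, 21.49 and 16.54 in J0121/UAS_YUC4 and 15.63, 6.45 and 6.64 in Q0990/UAS_YUC4, against 10.80, 14.72 and 8.06 in J0951/Col. All J0951/UAS_YUC4 libraries were above every other library of the study, and the libraries of J0571/UAS_YUC4, Q2500/UAS_YUC4 and J0121/UAS_YUC4 also lay above the highest control library. Its mean was 66.8 ± 15.4 FPKM in J0951/UAS_YUC4 and 11.2 ± 3.35 FPKM in J0951/Col, 5.96-fold higher (log2 difference 2.49, SE 0.343, adjusted p = 4.2e-05). BCAT4 overlaps AT3G19700 on the opposite strand, and since the strand used in counting is not given, reads of the pair cannot be told apart.

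BAT5, a transporter that brings the oxo acids into the plastid, had the lowest level and one of the smallest changes of the 7. It had 9.91, 7.93 and 6.76 FPKM in J0951/UAS_YUC4, 5.45, 5.27 and 4.99 in J0571/UAS_YUC4, 8.75, 5.66 and 5.73 in Q2500/UAS_YUC4, 6.87, 6.59 and 5.29 in J0121/UAS_YUC4 and 7.60, 3.69 and 3.64 in Q0990/UAS_YUC4, against 3.23, 5.32 and 4.41 in J0951/Col. The J0951/UAS_YUC4 and Q2500/UAS_YUC4 libraries lay wholly above those of the control, although limma did not call BAT5 in Q2500/UAS_YUC4 (adjusted p = 0.11). J0571/UAS_YUC4, J0121/UAS_YUC4 and Q0990/UAS_YUC4 overlapped with the control, with Q0990/UAS_YUC4 replicate 1 standing above its 2 companions. The change in J0951/UAS_YUC4 was 0.80 (SE 0.213, adjusted p = 0.0073), with means of 8.20 ± 1.59 and 4.32 ± 1.05 FPKM in J0951/UAS_YUC4 and J0951/Col.

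MAM1, a synthase that lengthens the side chain by adding acetyl units, was called higher in 4 of the 5 lines. It had 39.61, 24.97 and 28.59 FPKM in J0951/UAS_YUC4, 12.43, 12.99 and 20.28 in J0571/UAS_YUC4, 24.76, 15.35 and 22.41 in Q2500/UAS_YUC4, 26.09, 23.63 and 16.42 in J0121/UAS_YUC4 and 14.94, 8.17 and 6.08 in Q0990/UAS_YUC4, against 5.58, 11.60 and 6.09 in J0951/Col. Every library of these 4 lines was above the highest control library, while Q0990/UAS_YUC4 overlapped with the control. Its mean was 31.1 ± 7.63 FPKM in J0951/UAS_YUC4 and 7.76 ± 3.34 FPKM in J0951/Col (log2 difference 1.91, SE 0.298, adjusted p = 0.00013). Its tandem neighbour MAM3, which also lengthens side chains, was the more abundant of the pair in all groups, with 85.6 ± 14.6 FPKM in J0951/UAS_YUC4 and 54.9 ± 18.6 FPKM in J0951/Col, and changed by 0.67 (adjusted p = 0.044). The coding sequences of MAM1 and MAM3 are 78.9% identical when aligned and share 0 stretches of 50 bases.

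CYP79F2 and CYP79F1 make oximes from chain-elongated methionine and stand next to each other on chromosome 1 with 0 protein-coding genes between them. CYP79F2 had 27.65, 18.12 and 19.78 FPKM in J0951/UAS_YUC4, 11.24, 12.33 and 15.33 in J0571/UAS_YUC4, 23.88, 14.40 and 17.67 in Q2500/UAS_YUC4, 18.72, 17.73 and 14.00 in J0121/UAS_YUC4 and 13.60, 9.22 and 11.15 in Q0990/UAS_YUC4, against 7.74, 11.84 and 8.62 in J0951/Col. The lines J0951/UAS_YUC4, Q2500/UAS_YUC4 and J0121/UAS_YUC4 lay wholly above the control, and the other 2 lines overlapped with it. Its change in J0951/UAS_YUC4 was 1.13 (SE 0.195, adjusted p = 0.00031), with means of 21.8 ± 5.09 FPKM there and 9.40 ± 2.16 FPKM in J0951/Col. CYP79F1 was barely detected: it had 0.61, 0.33 and 0.18 FPKM in J0951/UAS_YUC4, at most 0.36 FPKM in the libraries of the other 4 lines, and 0.00, 0.02 and 0.05 FPKM in J0951/Col. Of the summed FPKM of the pair, CYP79F2 made up 97.7% to 100% in each library. Their coding sequences are 91.2% identical and share 54 stretches of 50 bases, 3.44% of those in CYP79F1, so part of the reads could have come from either copy. In a fit without the filter on low values CYP79F1 rose by 0.41 in J0951/UAS_YUC4 (adjusted p = 0.0043) and had adjusted p of 0.18 to 0.90 in the other 4 lines; its highest level was 0.61 FPKM.

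CYP83A1, the P450 that oxidises the oximes of this branch, followed BCAT4 closely. It had 50.42, 34.37 and 41.76 FPKM in J0951/UAS_YUC4, 15.89, 14.27 and 20.36 in J0571/UAS_YUC4, 30.01, 14.54 and 17.18 in Q2500/UAS_YUC4, 19.17, 16.06 and 10.52 in J0121/UAS_YUC4 and 11.49, 5.53 and 6.86 in Q0990/UAS_YUC4, against 8.19, 9.02 and 5.81 in J0951/Col. As for BCAT4, all J0951/UAS_YUC4 libraries exceeded every other library, and Q0990/UAS_YUC4 overlapped with the control. The mean was 42.2 ± 8.03 FPKM in J0951/UAS_YUC4 and 7.67 ± 1.67 FPKM in J0951/Col, 5.50-fold higher (log2 difference 2.32, SE 0.270, adjusted p = 8.8e-06).

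UGT74C1, which transfers glucose onto the core, had 18.77, 14.16 and 14.67 FPKM in J0951/UAS_YUC4, 9.14, 7.79 and 11.39 in J0571/UAS_YUC4, 18.30, 11.26 and 12.97 in Q2500/UAS_YUC4, 11.50, 10.47 and 8.37 in J0121/UAS_YUC4 and 11.02, 7.59 and 8.21 in Q0990/UAS_YUC4, against 7.24, 10.20 and 7.92 in J0951/Col. Only J0951/UAS_YUC4 and Q2500/UAS_YUC4 lay wholly above the control. The change in J0951/UAS_YUC4 was 0.84 (SE 0.181, adjusted p = 0.0017), with means of 15.9 ± 2.53 and 8.45 ± 1.55 FPKM in J0951/UAS_YUC4 and J0951/Col. UGT74C1 overlaps AT2G31800 and the long noncoding RNA AT2G08470 on the opposite strand, whose reads cannot be told apart from its own without the strand.

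MYB28 was the one regulator of the 3 that reached 1 FPKM. It had 18.50, 14.40 and 14.78 FPKM in J0951/UAS_YUC4, 10.05, 10.94 and 11.28 in J0571/UAS_YUC4, 15.16, 10.84 and 9.25 in Q2500/UAS_YUC4, 9.65, 9.61 and 9.82 in J0121/UAS_YUC4 and 10.15, 9.11 and 8.25 in Q0990/UAS_YUC4, against 8.97, 10.19 and 8.51 in J0951/Col. J0951/UAS_YUC4 was the one line whose libraries all lay above the control. The change there was 0.72 (SE 0.131, adjusted p = 0.00049), with means of 15.9 ± 2.27 FPKM in J0951/UAS_YUC4 and 9.22 ± 0.868 FPKM in J0951/Col. MYB29 was listed at 0.14, 0.03 and 0.06 FPKM in J0951/UAS_YUC4, at 0.03 in each J0571/UAS_YUC4 library, at 0 or 0.03 in Q2500/UAS_YUC4 and J0121/UAS_YUC4, at 0 in each Q0990/UAS_YUC4 library and at 0.03, 0 and 0 in J0951/Col. MYB76 was listed at 0 in 17 of the 18 libraries and at 0.04 in J0571/UAS_YUC4 replicate 3. In the fit without the filter MYB29 differed by 0.09 in J0951/UAS_YUC4 (adjusted p = 0.038) at levels of 0.14 FPKM or less and MYB76 was not called in any line.

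**Figure D2:**
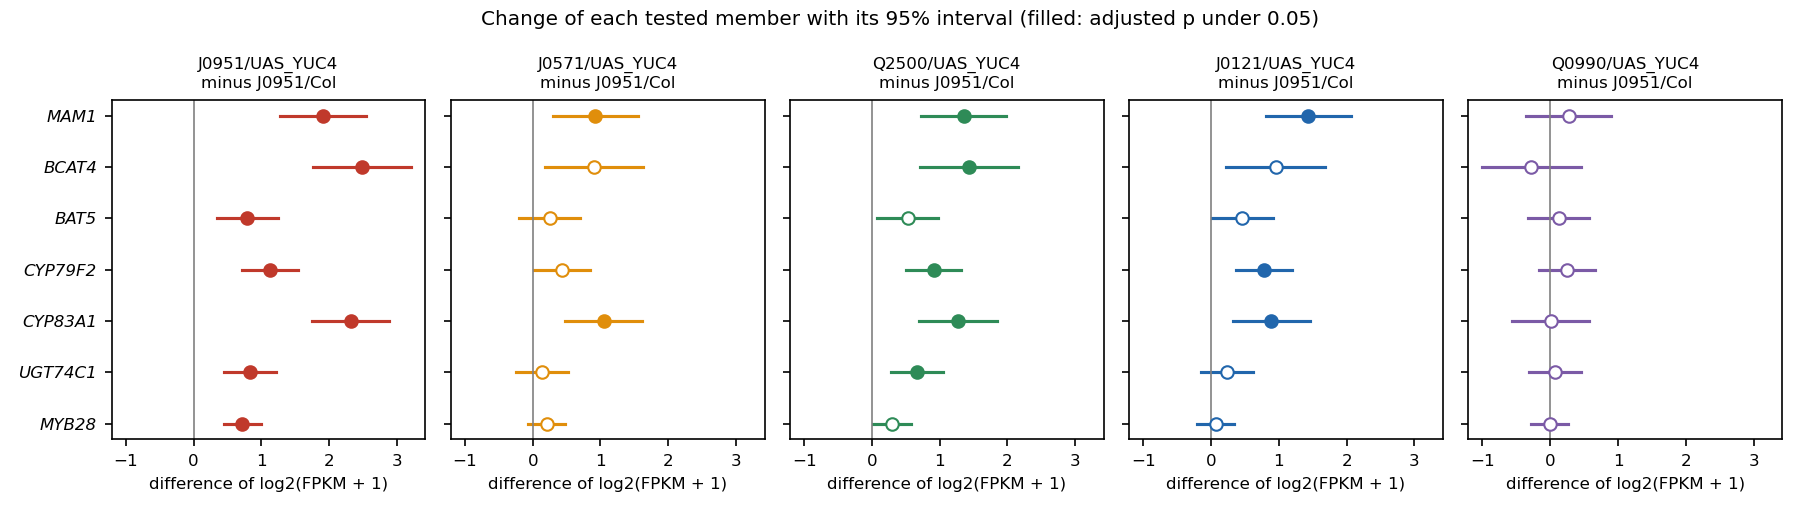
Difference of log2(FPKM + 1) from J0951/Col (horizontal axes) for the 7 tested genes in each UAS_YUC4 line; circles are estimates from limma, bars are 95% intervals, and filled circles have an adjusted p under 0.05. All 7 are filled in J0951/UAS_YUC4 and none in Q0990/UAS_YUC4, where the estimates lie between -0.28 and 0.27.

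The other 4 lines ask whether the same genes are raised when UAS_YUC4 is combined with another driver, with the limit on the driver stated above. In Q2500/UAS_YUC4, 5 of the 7 genes rose, against 6.88% of all tested genes called higher there. They were BCAT4 (1.43, SE 0.343, adjusted p = 0.016), MAM1 (1.36, adjusted p = 0.0097), CYP83A1 (1.27, adjusted p = 0.0080), CYP79F2 (0.91, adjusted p = 0.0084) and UGT74C1 (0.67, adjusted p = 0.026). BAT5 differed by 0.53 (adjusted p = 0.11) and MYB28 by 0.30 (adjusted p = 0.15), and 6 of the 7 had no overlap with the control, against 18.8% of all tested genes. Replicate 1 carried much of this: without it the call of BCAT4 was lost (adjusted p = 0.079), as was that of UGT74C1 (adjusted p = 0.12), and 3 of the 7 were called. Without replicate 3, the library closest to another group, MYB28 was called as well (0.44, adjusted p = 0.025).

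In J0121/UAS_YUC4, the line with the highest YUC4 level, 3 of the 7 genes rose, against 8.71% of all tested genes. MAM1 rose by 1.44 (SE 0.298, adjusted p = 0.0061), CYP83A1 by 0.89 (adjusted p = 0.039) and CYP79F2 by 0.79 (adjusted p = 0.016). BCAT4 had a difference of 0.95 with no overlap but missed the threshold (adjusted p = 0.074), and 4 of the 7 had no overlap, against 25.4% of all tested genes. MYB28 was at 9.69 ± 0.112 FPKM in J0121/UAS_YUC4 and 9.22 ± 0.868 FPKM in J0951/Col, a difference of 0.07 with a 95% interval of -0.21 to 0.35. The call of CYP83A1 was lost with quantile normalization (adjusted p = 0.068) and without any one of 5 of the 6 libraries compared (adjusted p of 0.052 to 0.15), and that of CYP79F2 without replicate 1 or 2 of J0121/UAS_YUC4 or replicate 1 or 3 of J0951/Col (adjusted p of 0.051 to 0.078).

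In J0571/UAS_YUC4, 2 of the 7 genes rose, against 19.8% of all tested genes, a share of the members not far from that of all genes. CYP83A1 rose by 1.04 (SE 0.270, adjusted p = 0.0093) and MAM1 by 0.92 (SE 0.298, adjusted p = 0.030). BCAT4 differed by 0.90 with no overlap (adjusted p = 0.059), and 3 of the 7 had no overlap, against 35.6% of all tested genes. The remaining 4 differed by 0.14 to 0.43, the highest being CYP79F2 (adjusted p = 0.11), where the median of all tested genes was 0.11. The call of MAM1 was lost with median-of-ratios scaling (adjusted p = 0.065), which moves that median to 0.01, and when J0571/UAS_YUC4 replicate 3 (adjusted p = 0.12) or control replicate 1 or 3 was left out (adjusted p = 0.13 and 0.095).

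In Q0990/UAS_YUC4, the line with the lowest YUC4 level, limma called 0 of the 7 genes, with 0 of the 7 at an unadjusted p under 0.05 and 0.457% of all tested genes called in either direction. The 7 differences ran from -0.28 for BCAT4, with a 95% interval of -1.0 to 0.45, to 0.27 for MAM1, with an interval of -0.36 to 0.90. CYP83A1 was at 7.96 ± 3.13 FPKM in Q0990/UAS_YUC4 and 7.67 ± 1.67 FPKM in J0951/Col, with an interval of the difference of -0.56 to 0.58. All 7 genes overlapped with the control libraries, where 13.8% of all tested genes lay wholly above them. The YUC4 level of this line, given above, was not called higher than in J0951/Col (log2 difference 1.52, adjusted p = 0.12).

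Over the 5 comparisons, MAM1 and CYP83A1 were called higher in 4 lines, CYP79F2 in 3, BCAT4 and UGT74C1 in 2, and BAT5 and MYB28 in 1. Scaling bears on such counts among all genes: of all calls in J0951/UAS_YUC4, 58.9% were higher, and 46.7% with median-of-ratios scaling. The same shares were 72.1% and 41.1% in J0571/UAS_YUC4, 60.8% and 38.3% in Q2500/UAS_YUC4, 65.6% and 38.0% in J0121/UAS_YUC4 and 40.9% and 23.5% in Q0990/UAS_YUC4. With that scaling 7 of the 7 genes were called higher in J0951/UAS_YUC4, 1 in J0571/UAS_YUC4, 5 in Q2500/UAS_YUC4, 2 in J0121/UAS_YUC4 and 0 in Q0990/UAS_YUC4. With 3 libraries against 3 the exact two-sided permutation test of a single gene cannot give a p below 0.1, the value it gave for all 7 genes in J0951/UAS_YUC4.

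The UAS_YUC4 lines differed among themselves, which was tested without the control. An F test over the 5 lines called 6 of the 7 genes, where 62.1% of all tested genes were called, with the lowest adjusted p for CYP83A1 (6.2e-05) and BCAT4 (1e-04), and with BAT5 missing the threshold (adjusted p = 0.073). Set against the mean of the other 4 UAS_YUC4 lines, J0951/UAS_YUC4 was higher for all 7, against 24.1% of all tested genes. The differences were 1.73 for BCAT4 (SE 0.272, adjusted p = 7.7e-05), 1.52 for CYP83A1 (SE 0.213, adjusted p = 3e-05), 0.91 for MAM1 (adjusted p = 0.0040) and 0.58 for MYB28 (adjusted p = 0.00024). Those of UGT74C1, CYP79F2 and BAT5 were 0.56, 0.54 and 0.45 (adjusted p = 0.0038, 0.0081 and 0.033). Only BCAT4 and CYP83A1 of the 7 had no overlap between J0951/UAS_YUC4 and all 12 libraries of the other lines, against 7.87% of all tested genes. The mean of the other 4 lines includes Q0990/UAS_YUC4, whose YUC4 level was not called higher than in J0951/Col. Against single lines fewer were called, 3 of the 7 against Q2500/UAS_YUC4 and 4 against J0121/UAS_YUC4, as given below. Without J0951/UAS_YUC4 replicate 1 the calls of BAT5 (adjusted p = 0.19) and CYP79F2 (adjusted p = 0.092) were lost, and that of BAT5 also without replicate 2 (adjusted p = 0.076).

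Ordered by mean log2 level, J0951/UAS_YUC4 stood first for all 7 genes, and Q0990/UAS_YUC4 and J0951/Col took the last 2 places for all 7, with J0951/Col the lower of the pair except for BCAT4 and MYB28. Of the 35 neighbouring steps in these orders, 3 passed the test, all of them the step between J0951/UAS_YUC4 and Q2500/UAS_YUC4. They were the steps of CYP83A1 (1.05, adjusted p = 0.0091), MYB28 (0.42, adjusted p = 0.025) and BCAT4 (1.06, adjusted p = 0.032). The remaining steps did not differ beyond the spread of the libraries at this threshold. For MAM1 the line next to J0951/UAS_YUC4 was J0121/UAS_YUC4 (adjusted p = 0.20), and for the other 6 genes it was Q2500/UAS_YUC4.

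In pairs of lines, J0951/UAS_YUC4 was higher than Q0990/UAS_YUC4 for 7 of the 7 genes (28.9% of all tested genes), than J0571/UAS_YUC4 for 6 (13% of all), than J0121/UAS_YUC4 for 4 (22.9% of all) and than Q2500/UAS_YUC4 for 3 (12% of all). The largest of these differences was that of BCAT4 between J0951/UAS_YUC4 and Q0990/UAS_YUC4, at 2.76 (SE 0.343, adjusted p = 1e-05). Q2500/UAS_YUC4 was higher than Q0990/UAS_YUC4 for 5 genes (16.1% of all), J0571/UAS_YUC4 for 2, BCAT4 and CYP83A1 (18.4% of all), and J0121/UAS_YUC4 for 1, MAM1 (1.16, adjusted p = 0.049; 1.3% of all). The last of these calls was lost under most alternatives, with adjusted p up to 0.24. Between J0571/UAS_YUC4 and Q2500/UAS_YUC4, J0571/UAS_YUC4 and J0121/UAS_YUC4, and Q2500/UAS_YUC4 and J0121/UAS_YUC4, limma called 0 of the 7 genes, with 2, 0 and 1 at an unadjusted p under 0.05, where 14.5%, 13.1% and 11.7% of all tested genes were called in either direction. In the first of these pairs UGT74C1 was at 9.44 ± 1.82 FPKM in J0571/UAS_YUC4 and 14.2 ± 3.67 FPKM in Q2500/UAS_YUC4 (log2 difference -0.53, adjusted p = 0.060).

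The genes also moved together from library to library within a group. After each library was set against its group mean on the log2 scale, the correlation between 2 genes over the 18 libraries ran from 0.576 for MAM1 with MYB28 to 0.968 for BCAT4 with CYP83A1, with a median of 0.789 over the 21 pairs. In 8 of the 18 libraries all 7 genes lay on the same side of their group means. They were all above it in J0951/UAS_YUC4 replicate 1, Q2500/UAS_YUC4 replicate 1, Q0990/UAS_YUC4 replicate 1 and J0951/Col replicate 2, by 0.29, 0.44, 0.46 and 0.31 on average. In J0121/UAS_YUC4 replicate 1, 6 of the 7 lay above it, by 0.21 on average over the 7. The size of the shift differed between genes: in Q0990/UAS_YUC4 replicate 1 MYB28 was 0.14 above its group mean, where BCAT4 was 0.76 above. These correlations are a description of 18 libraries that share their depth and scaling between genes.

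**Figure D3:**
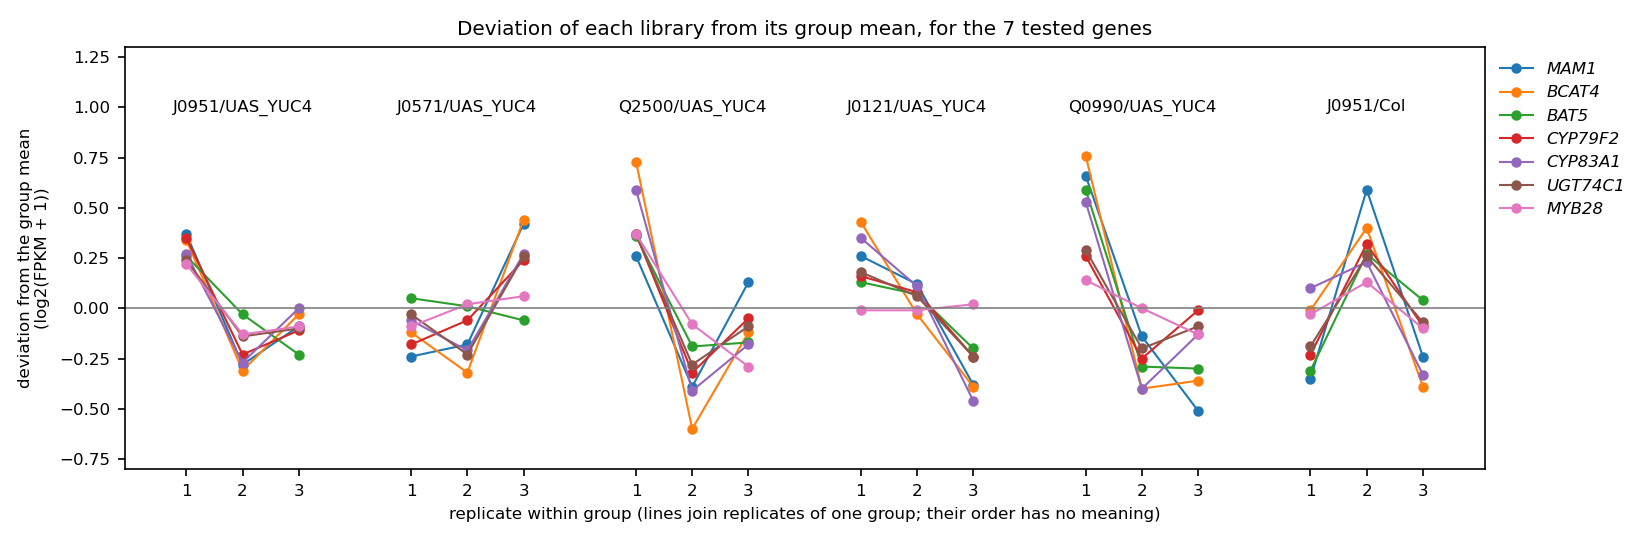
Deviation of each library from its group mean in log2(FPKM + 1) (vertical axis) for the 7 tested genes (colours) in the 3 replicates of each group (horizontal axis); lines join replicates of one group, whose order has no meaning. The 7 genes lie together above 0 in J0951/UAS_YUC4 replicate 1, Q2500/UAS_YUC4 replicate 1, Q0990/UAS_YUC4 replicate 1 and J0951/Col replicate 2.

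Among all other tested genes, 10 were most like the mean profile of the 7 by Pearson correlation over the 18 libraries. They were AT1G21440 (r = 0.975), annotated as a phosphoenolpyruvate carboxylase family protein, IPMDH1 (AT5G14200, 0.974), IPMI1 (0.970), IPMI2 (0.967), the aspartate kinase AK3 (0.963), IIL1 (0.950), SOT18 (0.946), GSTF11 (0.946), DJ1F (0.908) and the seryl-tRNA synthetase AT5G27470 (0.900). Of these 10, 6 are in the lists of chain elongation or core structure. Without the J0951/UAS_YUC4 libraries the 10 correlations ran from 0.830 for DJ1F to 0.967 for IPMDH1 over 15 libraries, and within groups from 0.643 for AT5G27470 to 0.965 for AK3. AK3 was at 9.55 ± 2.03 FPKM in J0951/UAS_YUC4 and 2.56 ± 0.459 FPKM in J0951/Col. AT1G21440 was at 43.1 ± 6.40 FPKM in J0951/UAS_YUC4 and 18.2 ± 2.61 FPKM in J0951/Col, levels given without a test because both genes were chosen for following the members over these libraries.

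The remaining genes of the aliphatic pathway were described from lists chosen with earlier results of these data known. In J0951/UAS_YUC4, 6 of 6 other chain elongation genes rose, with a median change of 0.86, where 23.8% of all tested genes were called higher. IPMI2, IPMI1 and IIL1 are subunits of the isomerase of each elongation round, and IPMDH1 is the dehydrogenase that follows it. IPMI2 was at 32.5 ± 4.93 FPKM in J0951/UAS_YUC4 and 11.5 ± 3.15 FPKM in J0951/Col (1.44, adjusted p = 0.00011), and IPMDH1 was at 83.7 ± 15.5 FPKM in J0951/UAS_YUC4 and 40.4 ± 10.2 FPKM in J0951/Col (1.04, adjusted p = 0.0010). IPMI1 rose by 1.15 and IIL1 by 0.38. In Q2500/UAS_YUC4 3 of the 6 rose, namely IPMI2 (1.03), IPMI1 (0.84) and IPMDH1 (0.83), and limma called 0 of 6 in the other 3 lines, with 2 in J0121/UAS_YUC4, 1 in Q0990/UAS_YUC4 and 0 in J0571/UAS_YUC4 at an unadjusted p under 0.05.

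Of 7 other core genes, 6 rose in J0951/UAS_YUC4, with a median of 0.61, where 23.8% of all tested genes were called higher. GSTF11, a glutathione transferase, rose by 1.53 (adjusted p = 3.8e-05) to 6.98 ± 1.10 FPKM, against 1.77 ± 0.343 FPKM in J0951/Col. The sulfotransferases SOT17 and SOT18, which complete the core by adding sulfate, rose by 0.86 and 0.75, and the glutathione transferase GSTU20 by 0.61. SUR1, a C-S lyase, and the glucosyltransferase UGT74B1, both of which also serve the indole branch, rose by 0.29 and 0.26, whereas GGP1 was not called (-0.02, adjusted p = 0.91). In J0571/UAS_YUC4 none of the 7 rose and 4 fell, where 7.63% of all tested genes were called lower: GSTU20 by 0.52, GGP1 by 0.47, SUR1 by 0.41 and UGT74B1 by 0.25. Q2500/UAS_YUC4 had 3 higher, GSTF11, SOT17 and SOT18, J0121/UAS_YUC4 had 1, SOT18, and Q0990/UAS_YUC4 had 0 called and 1 at an unadjusted p under 0.05.

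Genes of side-chain modification were called in both directions. Of 9 listed genes 4 were tested, and in J0951/UAS_YUC4 the S-oxygenases FMO GS-OX4 (0.59, adjusted p = 0.00064) and FMO GS-OX2 (0.60, adjusted p = 0.011) rose, GS-OH, a dioxygenase that hydroxylates side chains, fell by 0.29 (adjusted p = 0.049), and FMO GS-OX5 was not called (-0.10, adjusted p = 0.30). Of all tested genes, 16.7% were called lower in this comparison. FMO GS-OX4 was at 93.3 ± 5.69 FPKM in J0951/UAS_YUC4 and 61.7 ± 6.74 FPKM in J0951/Col. FMO GS-OX2 was low, at 1.12 ± 0.105 and 0.410 ± 0.185 FPKM in J0951/UAS_YUC4 and J0951/Col. Its J0951/UAS_YUC4 libraries had 1.02 to 1.23 FPKM, and no library of another group had more than 0.77 FPKM. FMO GS-OX2 thus passed the filter through J0951/UAS_YUC4 alone, so its call there was not independent of the filter. The call of GS-OH was lost without the filter (adjusted p = 0.067) and that of FMO GS-OX2 with a pseudocount of 0.1 (adjusted p = 0.056). The transporters GTR1 and GTR2, which carry glucosinolates between tissues, were not called in any line, with log2 differences of -0.11 and -0.06 in J0951/UAS_YUC4. Together, 14 of the 19 tested other genes of chain elongation, core, side chain and transport rose and 1 fell in J0951/UAS_YUC4, with FMO GS-OX2 among the 14. The counts were 0 and 4 in J0571/UAS_YUC4, 6 and 0 in Q2500/UAS_YUC4, 1 and 0 in J0121/UAS_YUC4 and 0 and 0 in Q0990/UAS_YUC4. Of all tested genes, 23.8% were called higher in J0951/UAS_YUC4, 19.8% in J0571/UAS_YUC4, 6.88% in Q2500/UAS_YUC4 and 8.71% in J0121/UAS_YUC4. The share called lower was 16.7% in J0951/UAS_YUC4 and 7.63% in J0571/UAS_YUC4.

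**Figure D4:**
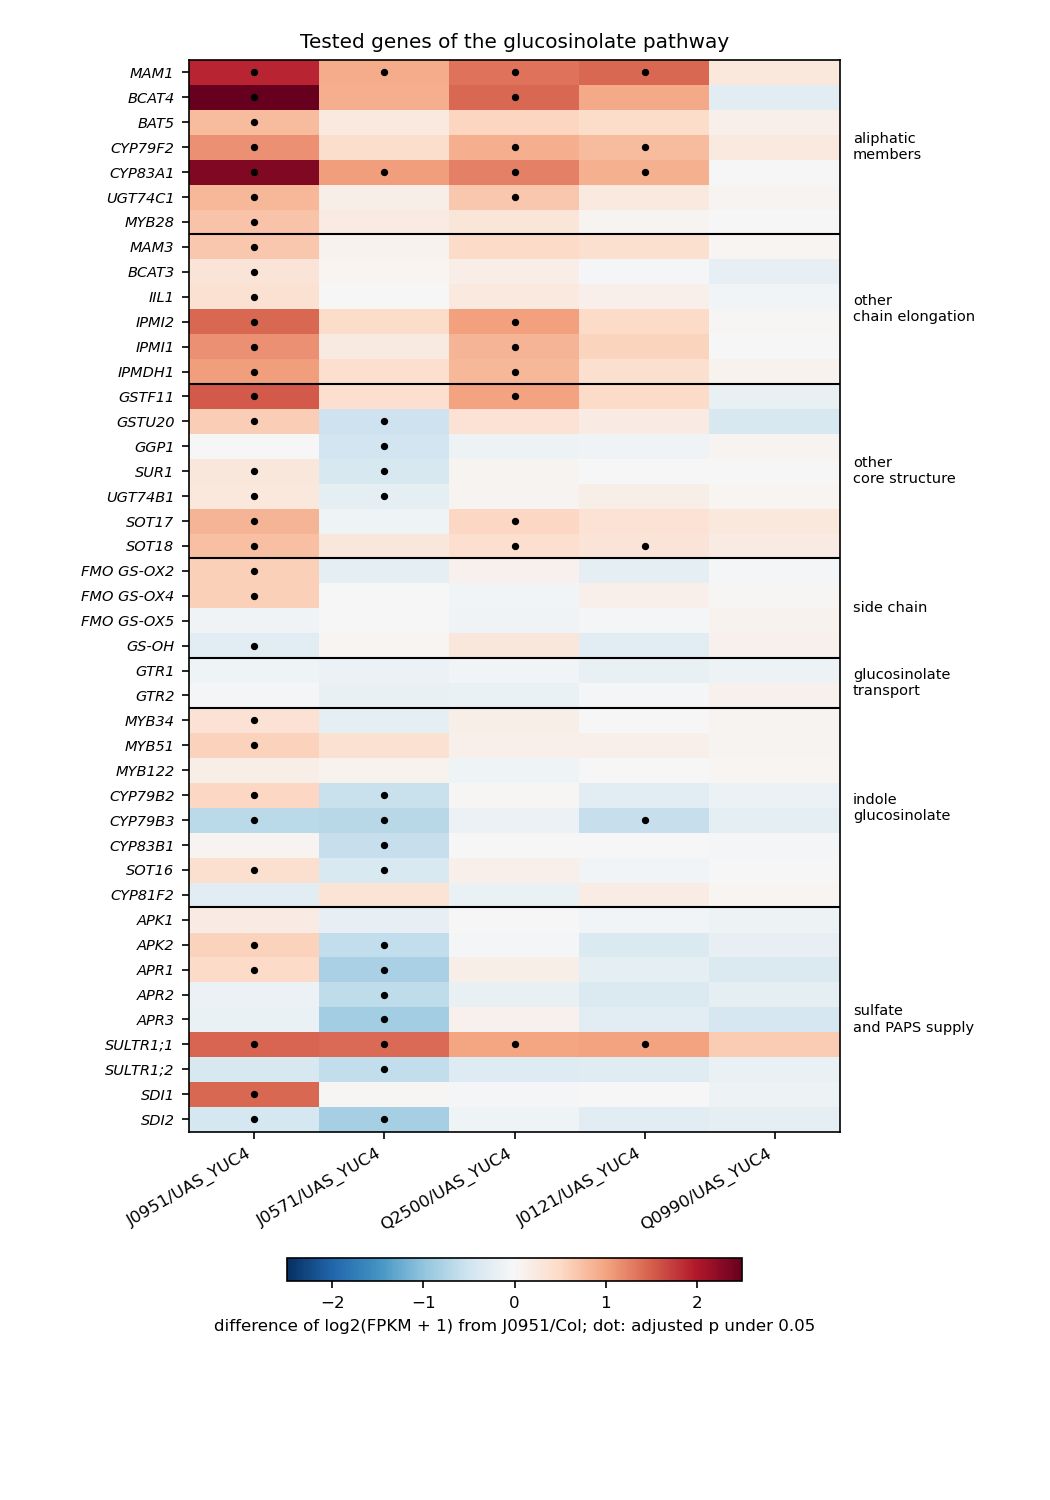
Difference of log2(FPKM + 1) from J0951/Col (colour, red higher and blue lower) for the tested aliphatic genes and the other listed genes of the pathway (rows) in the 5 UAS_YUC4 lines (columns); dots mark an adjusted p under 0.05. All 7 aliphatic members and 6 of 6 other chain elongation genes carry a dot in J0951/UAS_YUC4, and the 4 core genes with a dot in J0571/UAS_YUC4 are blue.

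The indole branch, which starts from tryptophan and shares enzymes with the aliphatic branch, was called in both directions. In J0951/UAS_YUC4, 4 of 8 tested genes rose and 1 fell, with a median of 0.25. Of all tested genes, 23.8% were called higher and 16.7% lower there. CYP79B2 rose by 0.51 to 132.0 ± 5.53 FPKM, against 92.4 ± 5.39 FPKM in J0951/Col, whereas its homologue CYP79B3 fell by 0.67 to 101.0 ± 11.8 FPKM, against 162.0 ± 29.8 FPKM in J0951/Col. The regulators MYB51 and MYB34 rose by 0.58 and 0.36, and the sulfotransferase SOT16 by 0.40. In J0571/UAS_YUC4 4 of the 8 fell, CYP79B3 by 0.70, CYP83B1 by 0.58, CYP79B2 by 0.55 and SOT16 by 0.37, against 7.63% of all tested genes called lower. In J0121/UAS_YUC4 1 fell, CYP79B3, by 0.57, against 4.57% of all tested genes. Among the MYC factors that act with these MYB proteins, MYC2 rose by 0.31 in J0951/UAS_YUC4, while MYC3 fell by 0.41 and MYC4 by 0.35. Each of these 3 calls was lost without at least one library (adjusted p of 0.053 to 0.11). In J0121/UAS_YUC4, 1 of the 3 MYC genes was called higher, against 8.71% of all tested genes. MYC3 was at 50 ± 3.53 FPKM there and 37.5 ± 3.35 in J0951/Col, and MYC4 at 18.4 ± 0.636 and 14.3 ± 1.65. In Q0990/UAS_YUC4 limma called 0 of the 3, with 3 at an unadjusted p under 0.05, where 0.457% of all tested genes were called in either direction.

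Sulfur for the pathway comes from sulfate, which is taken up, activated and used for cysteine and for the sulfate group. Of 9 listed genes, 4 rose and 1 fell in J0951/UAS_YUC4, where 23.8% of all tested genes were called higher and 16.7% lower. In J0571/UAS_YUC4 1 rose and 6 fell, where 19.8% were called higher and 7.63% lower. The root sulfate transporter SULTR1;1 was called higher in 4 lines, with 7.27 ± 0.629 FPKM in J0951/UAS_YUC4, 7.06 ± 0.673 in J0571/UAS_YUC4, 4.97 ± 0.557 in Q2500/UAS_YUC4 and 5.07 ± 0.968 in J0121/UAS_YUC4, against 2.03 ± 0.519 in J0951/Col (changes of 1.46, 1.43, 0.99 and 1.01). In Q0990/UAS_YUC4 SULTR1;1 was not called, at 3.68 ± 0.813 FPKM. Its lowest library there, 2.78 FPKM, lay above the highest of J0951/Col, 2.37 FPKM, where 13.8% of all tested genes lay wholly above the control. SDI1, a sulfur deficiency-induced gene known to act against MYB28, rose by 1.43 in J0951/UAS_YUC4 (adjusted p = 9.8e-05), to 7.49 ± 3.04 FPKM, against 2.04 ± 0.415 FPKM in J0951/Col, and its relative SDI2 fell by 0.43. The sulfate-activating kinase APK2 rose by 0.58 and the reductase APR1 by 0.48 in J0951/UAS_YUC4, and the same 2 genes fell by 0.61 and 0.81 in J0571/UAS_YUC4. APR2, APR3 and SULTR1;2 also fell in J0571/UAS_YUC4, by 0.64, 0.87 and 0.61.

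In the myrosinase system, 4 of 7 listed genes were tested. In J0951/UAS_YUC4, ESM1, which favours isothiocyanates among the breakdown products, rose by 0.69 at a low level, 3.17 ± 0.085 FPKM there and 1.62 ± 0.505 FPKM in J0951/Col. NSP1, a nitrile specifier protein, fell by 0.63 to 672.0 ± 101.0 FPKM, against 1030.0 ± 59.0 FPKM in J0951/Col, and fell by 1.38 in J0571/UAS_YUC4. In J0121/UAS_YUC4, 1 of the 4 tested genes was called higher and 1 lower. NSP1 was at 673 ± 12.3 FPKM in that line and ESM1 at 2.69 ± 0.225 FPKM. Of all tested genes, 23.8% were called higher and 16.7% lower in J0951/UAS_YUC4. These shares were 19.8% and 7.63% in J0571/UAS_YUC4 and 8.71% and 4.57% in J0121/UAS_YUC4. The root myrosinases TGG4 and TGG5 rose by 0.87 and 0.89 in J0571/UAS_YUC4 and had differences of 0.34 and 0.51 in J0951/UAS_YUC4 (adjusted p = 0.17 and 0.055). TGG1, a myrosinase of the shoot, did not pass the filter and had 0.52, 0.41 and 4.05 FPKM in J0951/UAS_YUC4, against 0 in all 3 J0951/Col libraries.

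Markers of photosynthetic shoot tissue moved with part of these results. Of 10 such genes, none was at 0 in every library, and 9 were higher in J0951/UAS_YUC4, 9 in J0571/UAS_YUC4, 7 in Q2500/UAS_YUC4, 0 in J0121/UAS_YUC4 and 0 in Q0990/UAS_YUC4. One of the 10, LHCB2.1, passed the filter through J0951/UAS_YUC4, J0571/UAS_YUC4 and Q2500/UAS_YUC4 alone. It had at most 0.81 FPKM in any library of the other groups, so a call of it in those lines was not independent of the filter. Of all tested genes, 23.8% were called higher in J0951/UAS_YUC4, 19.8% in J0571/UAS_YUC4, 6.88% in Q2500/UAS_YUC4 and 8.71% in J0121/UAS_YUC4. In Q0990/UAS_YUC4, 0.457% were called in either direction. LHCB3, a light-harvesting protein, was at 51.2 ± 10.4 FPKM in J0951/UAS_YUC4 and 13.8 ± 3.51 FPKM in J0951/Col. The summed level of the 10 shoot markers was 381.7 to 508.7 FPKM in J0951/UAS_YUC4, 396.6 to 456.5 in J0571/UAS_YUC4, 265.9 to 396.8 in Q2500/UAS_YUC4, 164.7 to 238.7 in J0121/UAS_YUC4 and 253.5 to 307.8 in Q0990/UAS_YUC4, against 220.1 to 267.7 in J0951/Col. The 10 aliphatic genes summed to 80.6 to 113.3 FPKM in J0571/UAS_YUC4 and to 167.0 to 248.9 FPKM in J0951/UAS_YUC4. J0121/UAS_YUC4 had 1 shoot marker called lower, RBCS1A, where 4.57% of all tested genes were called lower. MAM1, CYP83A1 and CYP79F2 were called higher in that line. Within J0951/UAS_YUC4, replicate 1 had the highest sum of the aliphatic genes, 248.9 FPKM, and the lowest sum of shoot markers, 381.7 FPKM. Q0990/UAS_YUC4 replicate 1 and J0951/Col replicate 2 did likewise in their groups. Q2500/UAS_YUC4 replicate 2 had the lowest aliphatic sum and the highest shoot sum. J0571/UAS_YUC4 replicate 3 had the highest of both sums, 113.3 and 456.5 FPKM, and J0121/UAS_YUC4 replicate 3 the lowest of both, 81.05 and 164.7 FPKM. The part of shoot tissue in the levels of the aliphatic genes was not tested in any line, and the UAS_YUC4 lines also differ in driver.

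**Figure D5:**
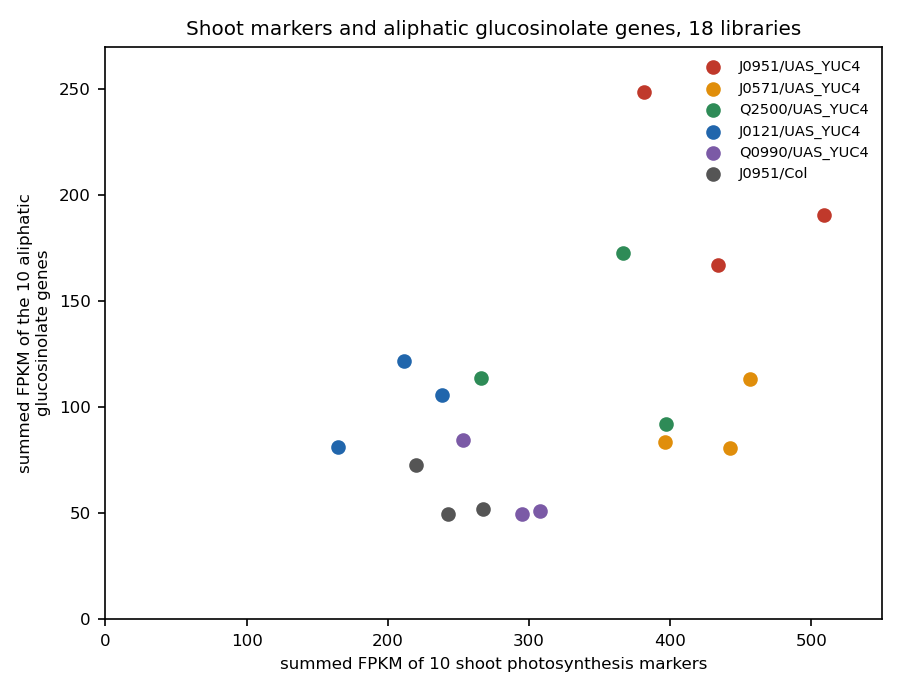
Summed FPKM of the 10 aliphatic glucosinolate genes (vertical axis) against the summed FPKM of 10 shoot photosynthesis markers (horizontal axis) in each of the 18 libraries, coloured by group. J0571/UAS_YUC4 lies to the right, as does J0951/UAS_YUC4, and has 80.6 to 113.3 FPKM of aliphatic genes. J0121/UAS_YUC4 lies to the left at 81.05 to 122.0 FPKM.

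The order of the lines by YUC4 was not their order by the aliphatic genes. J0121/UAS_YUC4 had 825.0 ± 88.2 FPKM of YUC4 and 81.05 to 122.0 FPKM of the 10 genes, whereas J0951/UAS_YUC4 had 37.6 ± 6.60 FPKM of YUC4 and 167.0 to 248.9 FPKM of the 10 genes. Between them, J0571/UAS_YUC4 had 74.1 ± 5.51 FPKM of YUC4 and 80.6 to 113.3 FPKM of the 10 genes, and Q2500/UAS_YUC4 had 102.0 ± 15.7 FPKM of YUC4 and 92.24 to 172.8 FPKM of the 10 genes. In Q0990/UAS_YUC4 the 10 genes summed to 49.81 to 84.48 FPKM, against 49.47 to 72.91 FPKM in J0951/Col.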

How the data were processed

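RNA of seedling roots was sequenced in 18 libraries, after cutting the roots, extracting total RNA and priming complementary DNA at random, per the labels' protocols. The authors deposited FPKM values for 25202 loci, rounded to 2 decimals; no source used here names the aligner, genome build or strand, and 0 columns of values were left out. Read depth is unknown, so counting intervals cannot be given. Relative depth, read from the steps between low values of 50 genes (tolerance 0.08 of a step), ran from 0.963 to 1.01 between libraries. No 2 libraries held identical values.

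From these values, log2(FPKM + 1) was fitted in limma 3.58.1 (R 4.3.3) with 1 mean per group over the 18 libraries, a mean-variance trend and 12 residual degrees of freedom, on the 19260 genes with at least 1 FPKM in at least 3 libraries. P-values were adjusted by the Benjamini-Hochberg method within each comparison, at a threshold of 0.05, and the median standard error was 0.099. A run of the fit on simulated data gave each gene independent noise. It does not cover genes that move together within a group, and no result here rests on it. The 10 genes, the other lists and the rule for naming were chosen with earlier results of these data known. The rule named all 10 genes, up to 4 called genes of each other list by adjusted p in J0951/UAS_YUC4, and the 10 genes most like the members; J0571/UAS_YUC4 and J0121/UAS_YUC4 calls in those lists, the uncalled list members and MYB34, which the text also gives, were named after their values were seen. Of 80 listed names 76 were found in the RefSeq annotation of TAIR10.1, and AOP2 was not analysed here. Sequences came from that assembly and were read with Python 3.11.15 and Biopython 1.88.

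Alternatives changed the pseudocount, filter, scaling, variance model, library weights, replicate block and set of libraries.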

Additional observations from a re-analysis of the deposited data

Results flagged for a closer look

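The level of 6 genes differed between the 5 UAS_YUC4 lines by the F test of limma, which compares the lines without the control (Benjamini-Hochberg adjusted over all tested genes). The adjusted p was 6.2e-05 for CYP83A1, 1e-04 for BCAT4, 0.0013 for MYB28, 0.002 for MAM1, 0.0041 for UGT74C1 and 0.0052 for CYP79F2. J0951/UAS_YUC4 had the highest mean of the 5 lines for each of the 6. Since 62.1% of all tested genes differed in the same way, the number of flagged genes is not particular to the pathway.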

How the results depend on the processing

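In J0951/UAS_YUC4 against J0951/Col all 7 genes were called higher under every alternative that refits limma, leaving out each library included. The number of all genes called there was 5652 to 6992 with a library left out, against 7796 in full. It was 3565 to 4387 against 5275 in J0571/UAS_YUC4 and 1170 to 1681 against 2557 in J0121/UAS_YUC4, fewer than in full, but 875 to 3522 against 2180 in Q2500/UAS_YUC4 and 17 to 264 against 88 in Q0990/UAS_YUC4, on either side of it. The highest counts came without replicate 3 in Q2500/UAS_YUC4 and without replicate 1 in Q0990/UAS_YUC4. The members called ranged from 1 to 4 in J0571/UAS_YUC4 (2 in full), 1 to 3 in J0121/UAS_YUC4 (3 in full) and 3 to 6 in Q2500/UAS_YUC4 (5 in full), and were 0 throughout in Q0990/UAS_YUC4. For J0951/UAS_YUC4 against the other 4 lines they ranged from 5 to 7 (7 in full), and for the F test from 6 to 7 (6 in full). The lowest counts of all genes came without replicate 3 in Q0990/UAS_YUC4, without replicate 1 in Q2500/UAS_YUC4 and without J0951/Col replicate 1 in J0121/UAS_YUC4.

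In J0571/UAS_YUC4 the 2 members called became 1 without a filter, with quantile normalization and with median-of-ratios scaling, and 4 when J0571/UAS_YUC4 and J0951/Col were fitted without the other lines. In Q2500/UAS_YUC4 the 2180 genes called became 400 with library weights, 752 fitted with the control only and 3782 without replicate 3 of both Q2500/UAS_YUC4 and Q0990/UAS_YUC4, an alternative chosen after seeing the data, and the 5 members became 2 with library weights. In J0121/UAS_YUC4 the 2557 became 4409 with library weights. In Q0990/UAS_YUC4 the 88 became 136 with a mean of at least 5 FPKM, 221 with median-of-ratios scaling, 717 with library weights, 25 fitted with the control only and 29 without the 2 replicates named above. The weights were estimated with a warning that the tolerance was not reached. The cause of these shifts was not tested.

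Deviations from the group mean over all tested genes correlated at -0.24 to 0.38 between same-numbered libraries of the UAS_YUC4 lines and at -0.27 to 0.28 with the control. In 0 of 15 pairs of groups were all 3 over 0.1, the median was 0.02, and 8 of 18 libraries were closest to their own number on average, so the numbers were not used to pair libraries. The aliphatic genes alone lay above their group mean on average in replicate 1 of 4 of the 5 lines. With the replicate block the genes called were 7813 in J0951/UAS_YUC4, 5321 in J0571/UAS_YUC4, 2264 in Q2500/UAS_YUC4, 2498 in J0121/UAS_YUC4 and 127 in Q0990/UAS_YUC4, and the members called were 7, 3, 5, 4 and 0. BCAT4 was then called in J0571/UAS_YUC4 (adjusted p = 0.031) and J0121/UAS_YUC4 (adjusted p = 0.043), and BAT5 in the F test (adjusted p = 0.045).

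Of the members' values in comparisons with the control, in the F test and against the other 4 lines, 833 kept direction and call, 32 lost the call, 15 gained it and 16 changed sign, and between pairs of lines 20 changed sign. None of the values that changed sign was called. With one library left out, the differences of Q0990/UAS_YUC4 from J0951/Col ran from -0.0561 to 0.566 for MAM1, -0.17 to 0.275 for BAT5, -0.257 to 0.211 for CYP83A1, -0.0754 to 0.198 for UGT74C1 and -0.0768 to 0.0585 for MYB28. There, library weights gave -0.08 for BAT5, -0.139 for CYP83A1 and -0.0686 for UGT74C1, and CYP83A1 was at -0.0233 with quantile normalization and -0.0165 with median-of-ratios scaling. MYB28 was at 0.0579 without the 2 replicates named above, and in J0121/UAS_YUC4 it was at -0.0181 with quantile normalization. With one library left out, J0571/UAS_YUC4 minus Q2500/UAS_YUC4 ran from -0.427 to 0.0714 for CYP83A1 and -0.236 to 0.0924 for MYB28. J0571/UAS_YUC4 minus J0121/UAS_YUC4 ran from -0.268 to 0.165 for BCAT4, which was at 0.0419 with library weights, -0.0708 to 0.333 for CYP83A1 and -0.225 to 0.0226 for UGT74C1. J0571/UAS_YUC4 minus Q0990/UAS_YUC4 ran from -0.0269 to 0.418 for BAT5 and -0.0588 to 0.217 for UGT74C1, which was at -0.0044 with quantile normalization and -0.0079 with median-of-ratios scaling. Q2500/UAS_YUC4 minus J0121/UAS_YUC4 ran from -0.269 to 0.116 for MAM1, which was at 0.186 with library weights, -0.108 to 0.167 for BAT5 and -0.0615 to 0.285 for CYP79F2. PYK10, a root marker that fell by 0.91 in J0951/UAS_YUC4, was at -0.19 with quantile normalization (adjusted p = 0.083). Depth limits CYP79F1, MYB29 and MYB76 most, whose values lie near the last decimal of the table.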
